A study of Mus musculus with 2 samples.

Results

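The natriuretic peptide system was described here as 9 genes chosen by name and role: the peptide genes Nppa and Nppb, the processing proteases Corin and Furin, the receptors Npr1, Npr2 and Npr3, the cGMP kinase gene Prkg1 and Mme, which encodes the peptide-degrading enzyme neprilysin. All 9 were among the 31920 rows of the deposited gene table. Polyadenylated RNA of the cardiac left ventricle was sequenced from 2 mice of the strain 129-SvEv, both male and 10 weeks of age. The mutant was labelled Lamp2 knockout, and the mouse it was set against was labelled wildtype. Each group held 1 library, so no difference has a replicate check and no p-value is given. The title of the series concerns cardiomyopathy from loss of LAMP2, a lysosomal membrane protein, and the comparison shows how this hormone system stood in a ventricle of each label.

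Atrial natriuretic peptide (ANP, from Nppa) and brain natriuretic peptide (BNP, from Nppb) are hormones that heart muscle cells make as longer precursors and release when the wall is stretched. Corin cuts the ANP precursor and furin can cut the BNP precursor. The active peptides bind NPR-A (Npr1), a receptor that makes cyclic GMP inside the target cell and so activates the kinase encoded by Prkg1, which lowers vascular tone and restrains growth of heart muscle cells. NPR-C (Npr3) and neprilysin remove the peptides, while NPR-B (Npr2) mainly answers the related C-type peptide. In the healthy adult heart Nppa is mainly an atrial gene, and higher ventricular Nppa and Nppb are widely used markers of cardiac load.

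Nppa and Nppb encode related hormones and could in principle share reads, so their transcripts were compared (GENCODE M21). The longest run of bases that the annotated transcripts share, of 865 bases for Nppa and 781 for Nppb, was 10 bases. Any read longer than that would meet at least 1 differing base.

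The 250 bases before the start of each peptide gene are shown because the genes lie side by side and both were higher in the knockout-labelled library. They were taken from RefSeq (GRCm38.p6), which held starts for all 9 members. Capitals mark matches on either strand to short binding elements of factors known to act on these genes: AGATAA for the cardiac zinc finger factors such as GATA4, TGATAA for the same factors with another first base, AAGTG for the homeobox factor NKX2-5, AGGTGTGA for T-box factors and CATTCC, the M-CAT element, for TEAD factors.
Nppa, chr4:148000472-148000721, plus strand: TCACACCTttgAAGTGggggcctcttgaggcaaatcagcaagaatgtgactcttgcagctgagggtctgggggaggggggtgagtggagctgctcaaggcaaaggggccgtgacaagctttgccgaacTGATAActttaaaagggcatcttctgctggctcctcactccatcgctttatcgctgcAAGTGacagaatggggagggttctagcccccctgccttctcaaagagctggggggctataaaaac
Nppb, chr4:147985650-147985899, plus strand: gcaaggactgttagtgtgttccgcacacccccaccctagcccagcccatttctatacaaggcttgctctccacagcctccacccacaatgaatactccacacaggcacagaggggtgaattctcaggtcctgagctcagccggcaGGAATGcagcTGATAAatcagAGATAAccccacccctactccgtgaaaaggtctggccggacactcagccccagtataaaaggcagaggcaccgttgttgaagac
The Nppa window held AGGTGTGA read on the minus strand at bases 1 to 8, AAGTG at bases 12 to 16 and again at 186 to 190, and TGATAA at bases 129 to 134. The Nppb window held CATTCC read on the minus strand at bases 146 to 151, TGATAA at bases 156 to 161 and AGATAA at bases 167 to 172. No 2 matches overlapped within either window. The deposited row of Nppb begins at base 140 of its window, upstream of the RefSeq start. All matches in the Nppb window lie after that base, so by the deposited start they fall inside the gene. TGATAA was the element found in both peptide windows, and it occurred in 7.95% of 32817 annotated windows of the same length. The other shares were 9.99% for AGATAA, 40.7% for AAGTG, 1.12% for AGGTGTGA and 12.6% for CATTCC. The AP-1 element TGANTCA (6.75% of windows), the cyclic AMP element TGACGTCA (1.55%) and the CArG box of serum response factor (1.47%) had no match in either peptide window. No mismatch to the searched letters was allowed. A site that differs from them, such as a CArG-like stretch, would not be counted. Among the other members, the window of Furin held AAGTG in 4 places, that of Prkg1 held AGATAA and that of Mme held CATTCC. Those of Corin, Npr1, Npr2 and Npr3 held none of these letters. The Mme window lies wholly downstream of the start of its deposited row.

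Reads assigned to genes numbered 8773820 in the knockout-labelled library and 8410593 in the wildtype library. Lamp2 itself had 986 reads in the knockout-labelled library and 990 in the wildtype, and the labels do not describe the allele, so the table cannot check the genotype label. Reads of the mitochondrial genome made up 16.2% of the knockout-labelled library and 26.5% of the wildtype, and a level in reads per 1000000 (RPM) is a share of that total. The part of this difference in the values below was not tested beyond rescaling, of which 3 forms lower every ratio by 0.12 to 0.20 on the log2 scale. The tissue label could be checked against chamber markers. The ventricular light chain genes Myl2 and Myl3 stood at 8322 and 3944 RPM in the knockout-labelled library, against 8818 and 4143 RPM in the wildtype.

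Both peptide genes were higher in the knockout-labelled ventricle, by about the same factor, while none of the 7 other members passed the rule of a 2-fold difference in either direction. Measured genes are those whose higher library reached 5 RPM, as it did for all 9 members. A gene under 5 RPM in the other library entered only through the library where it was high. Among the called list genes below this holds for Dkk3, Gja5, Lum, S100a9 and Nfatc4, so their calls are partly set by the minimum. A gene counted as higher or lower if the log2 ratio with a pseudocount of 1 RPM was at least 1 in size. By this rule 2 of the 9 members were higher, against 3.35% of 10209 measured genes, and 0 were lower, against 2.37% of those genes. Over the 9 members the median log2 ratio was −0.0033, against 0.11 over all measured genes. The counting interval of the ratio lay above 1 for 4 members (35.0% of measured genes), below 1 for 1 member (16.8% of measured genes) and held 1 for the other 4.

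**Figure D1:**
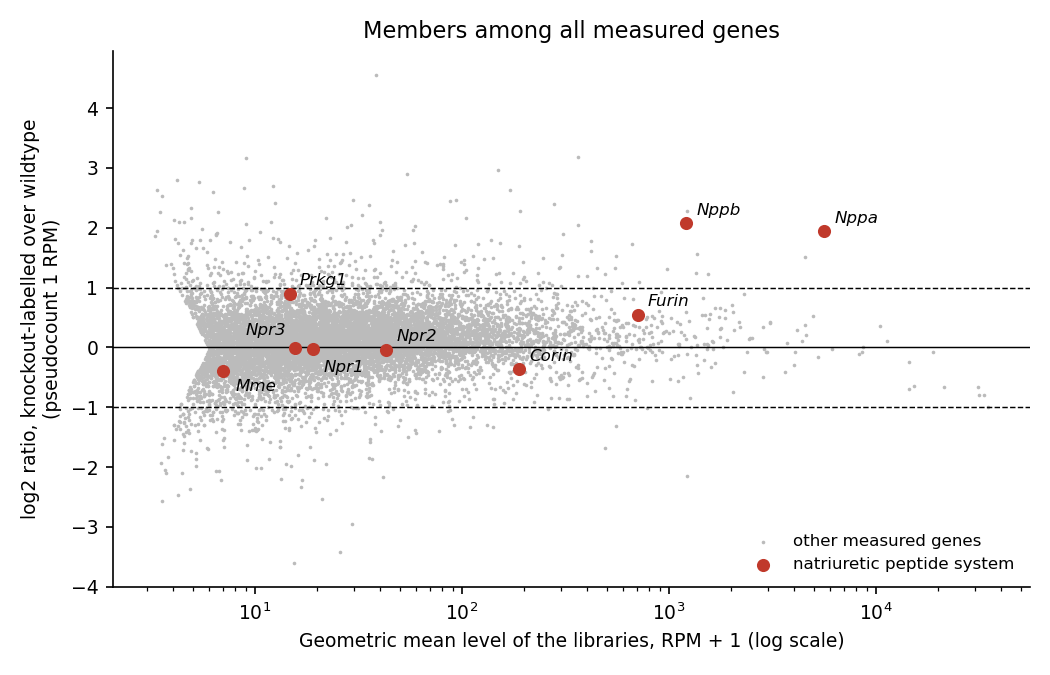
Each grey point is a measured gene, placed by the geometric mean of its RPM + 1 in the libraries (log scale) and by its log2 ratio of the knockout-labelled over the wildtype library with a pseudocount of 1 RPM; the dashed lines mark the 2-fold rule. Of the 9 named members, Nppa and Nppb stand above the upper line among the abundant genes, and the other 7 lie between the lines.

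Nppa had 96395 reads in the knockout-labelled library and 24123 in the wildtype, or 10987 against 2868 RPM. Its transcripts thus made up 1.10% of all reads in the knockout-labelled library (exact binomial 95% interval 1.09 to 1.11) and 0.287% in the wildtype (0.283 to 0.290). The ratio was 3.83, with an exact conditional binomial 95% interval of 3.78 to 3.89. These intervals cover counting error only and say nothing of the spread between mice. Ranked by RPM, Nppa was the 12th most abundant of the measured genes in the knockout-labelled library and the 30th in the wildtype. Only 43 of 10209 measured genes had a larger log2 ratio.

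Nppb had 21655 reads in the knockout-labelled library and 4920 in the wildtype, or 2468 against 585.0 RPM. Its ratio was 4.22 (4.09 to 4.35), with 33 measured genes above it in log2 ratio. Its rank by RPM was 42 in the knockout-labelled library and 177 in the wildtype. Both hormone genes were thus abundant in each library, and together they took 1.35% of reads in the knockout-labelled library (1.34 to 1.35) against 0.345% in the wildtype (0.341 to 0.349). Of all reads that fell on the 9 members, the 2 peptides held 92.4% in the knockout-labelled library and 79.6% in the wildtype.

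The balance between the hormones differed little between the libraries. Per kilobase of annotated exon, Nppa exceeded Nppb 4.02-fold in the knockout-labelled library and 4.43-fold in the wildtype. The ratio of Nppa divided by that of Nppb was 0.908, with a 95% interval of 0.878 to 0.939 from a log-normal approximation, so the excess in Nppb was the larger by more than counting error but by a small amount.

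**Figure D2:**
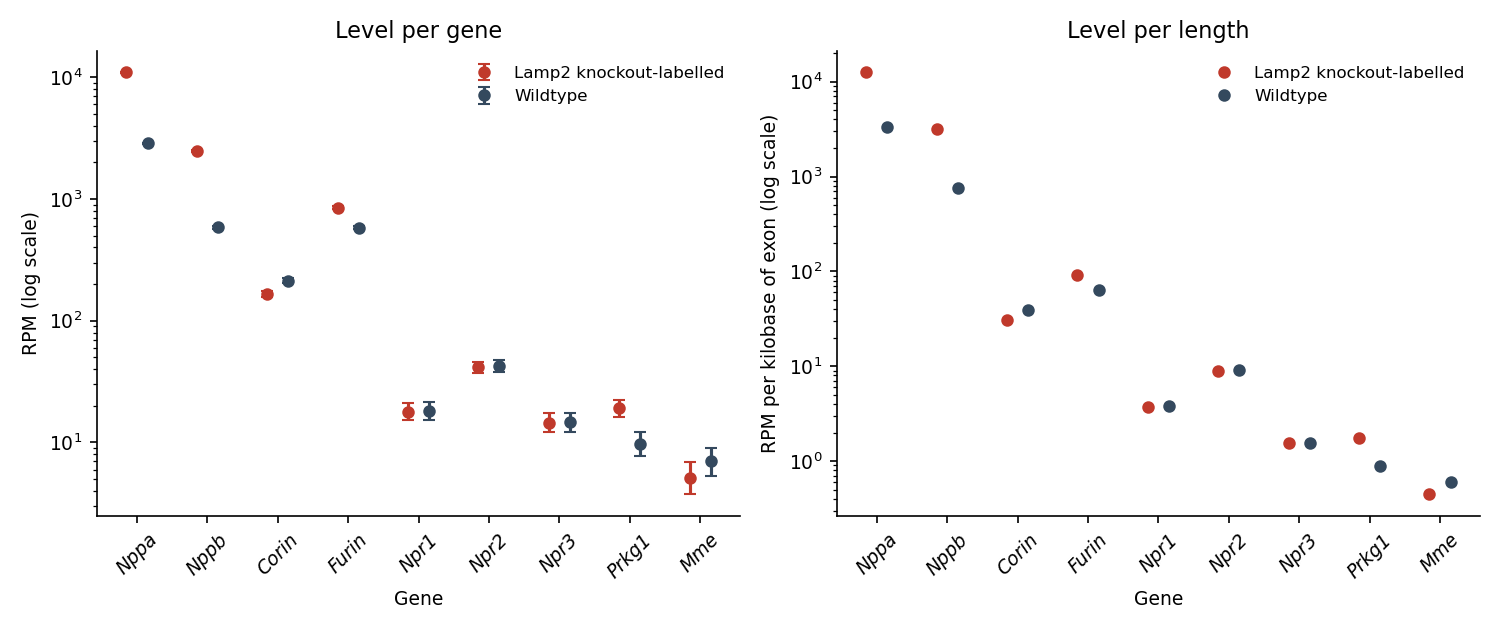
Level of each member in the knockout-labelled library (red, left of each pair) and the wildtype library (dark, right of each pair), as RPM per gene with exact binomial 95% counting intervals and as RPM per kilobase of annotated exon, both on log scales. The peptides stand far above every other member per length in both libraries, and the intervals of the receptors overlap between the libraries.

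The genes that activate the precursors went different ways. Corin, the membrane protease of heart muscle cells that cuts the ANP precursor, had 1450 reads in the knockout-labelled library and 1785 in the wildtype, or 165 against 212 RPM. Its ratio of 0.779 (0.726 to 0.835) was under 1 beyond counting error but within the 2-fold rule. Furin, a protease of the secretory pathway with many substrates besides natriuretic peptides, had 7463 reads in the knockout-labelled library and 4898 in the wildtype, or 851 against 582 RPM. Its ratio was 1.46 (1.41 to 1.51), also within the rule. Furin thus exceeded Corin 3.03-fold per kilobase in the knockout-labelled library and 1.61-fold in the wildtype. These values depend on the length used. With the longest transcript as length, Furin stood at 148 RPM per kilobase and Corin at 34.0 in the knockout-labelled library, against 102 and 43.7 in the wildtype. The quotient of the Furin and Corin ratios, which does not depend on length, was 1.88 (1.73 to 2.03, log-normal approximation).

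The receptor genes had nearly equal levels in the libraries. Npr1, which encodes the receptor for ANP and BNP, had 157 reads in the knockout-labelled library and 153 in the wildtype, or 17.9 against 18.2 RPM and a ratio of 0.984 (0.782 to 1.24). Npr2, which encodes the receptor for the C-type peptide, stood at 41.4 against 42.6 RPM from 363 and 358 reads, a ratio of 0.972 (0.838 to 1.13). Npr3, which encodes the clearance receptor, stood at 14.6 RPM in both, from 128 reads in the knockout-labelled library and 123 in the wildtype, a ratio of 0.998 (0.773 to 1.29). Each of the 3 intervals held 1 and excluded a 2-fold difference in either direction, as far as counting error goes. With at most 363 reads each, differences smaller than these intervals were not detectable at this depth.

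The proportions among the receptors were accordingly close. Per kilobase of exon, Npr3 stood at 0.415 of the Npr1 level in the knockout-labelled library and 0.410 in the wildtype, and Npr2 at 2.37 and 2.40 times the Npr1 level. The quotient of the Npr3 and Npr1 ratios was 1.01 (0.717 to 1.43, exact conditional interval). Nppa exceeded Npr1 per kilobase 3395-fold in the knockout-labelled library and 872-fold in the wildtype. Nppb exceeded Npr1 845-fold in the knockout-labelled library and 197-fold in the wildtype. These are proportions of transcripts within the ventricle, and the hormones also act on other organs.

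Prkg1, the cGMP-dependent kinase downstream of the receptor, was the member nearest to the rule from below. It had 167 reads in the knockout-labelled library and 82 in the wildtype, or 19.0 against 9.75 RPM. Its ratio was 1.95 (1.49 to 2.57), and its log2 ratio of 0.90 with the pseudocount fell short of 1. A 1.5-fold rule would call it together with the peptides, at 12.8% of measured genes. Smooth muscle cells are rich in this kinase. Of 6 measured smooth muscle markers, 0 were 2-fold higher and 0 lower. Acta2 stood at 41.3 RPM in the knockout-labelled library and 57.8 RPM in the wildtype, Myh11 at 16.3 and 22.4 RPM, Tagln at 6.95 and 11.7 RPM, and the summed level of all 7 markers was 157 against 192 RPM. The part of these cells in the Prkg1 value was not tested. In bulk tissue, fewer cells of a type and less RNA per cell cannot be told apart.

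Mme, the gene of neprilysin, which degrades natriuretic and other peptides, was the least abundant member. It had 45 reads in the knockout-labelled library and 59 in the wildtype, or 5.13 against 7.02 RPM. The ratio of 0.731 (0.485 to 1.10) held 1, so a difference was not detectable at this depth.

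**Figure D3:**
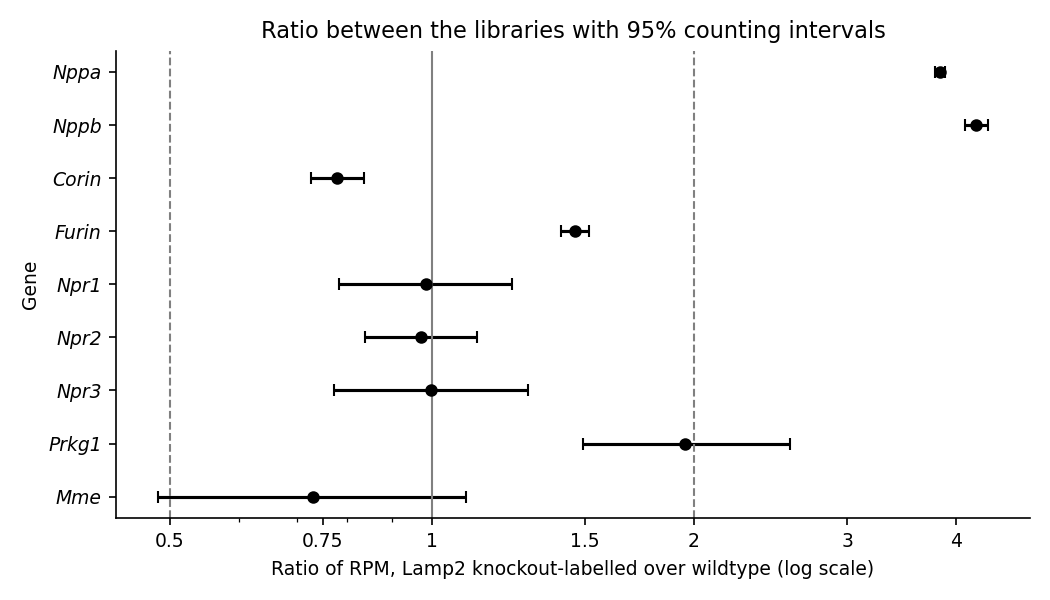
Ratio of RPM in the knockout-labelled over the wildtype library for each member (log scale), with exact conditional binomial 95% intervals that cover counting error only; the solid line marks a ratio of 1 and the dashed lines the 2-fold rule. Nppa and Nppb lie near 4, the 3 receptor genes at about 1, and the intervals of Prkg1 and Mme reach across a dashed line.

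Per kilobase of exon, the members had nearly the same order in both libraries. Nppa was first at 12701 RPM per kilobase in the knockout-labelled library and 3316 in the wildtype, followed by Nppb at 3160 and 749. Furin came next at 92.7 in the knockout-labelled library and 63.5 in the wildtype, then Corin at 30.6 and 39.3, Npr2 at 8.87 and 9.12 and Npr1 at 3.74 and 3.80. Prkg1 stood above Npr3 in the knockout-labelled library, at 1.75 against 1.55, and below it in the wildtype, at 0.898 against 1.56. Mme was last at 0.444 in the knockout-labelled library and 0.608 in the wildtype. With no replicates, the spread over samples of these levels is unknown.

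The excess in the peptides could be set against their genomic neighbours. Nppb starts 14957 bases before Nppa on chromosome 4 (deposited rows chr4:147985789-147987205 and chr4:148000746-148002067, mm10). Within 100 kb of the pair lay 6 other rows measured and reported here, of which 0 were 2-fold higher and 0 lower, with ratios of 0.841 to 1.55. The nearest neighbour of Nppa is Clcn6, which encodes a chloride and proton exchanger of late endosomes, at 18.6 RPM in the knockout-labelled library and 12.0 in the wildtype (ratio 1.55). Agtrap, whose product binds the angiotensin receptor, stood at 46.2 against 33.3 RPM (1.39, 1.19 to 1.62). On the side of Nppb, Plod1, a collagen-modifying enzyme gene, had a ratio of 1.15 (1.03 to 1.29) and Mfn2, a mitochondrial fusion gene, a ratio of 0.841 (0.809 to 0.874). The rows 2510039O18Rik and AK206234 overlap on the same strand and can share reads, and their ratios were 1.16 and 1.18. The counting interval lay above 1 for 5 of the 6 neighbours, counting both overlapping rows, against 35.0% of all measured genes, and below 1 for Mfn2. For Plod1, 2510039O18Rik and AK206234 the lower bounds were 1.03, 1.04 and 1.02. These are under the divisors of 1.08, 1.09 and 1.15 in the rescalings that lower every ratio, so their intervals then hold 1. The ratios of all 6 neighbours were smaller than those of the peptides.

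**Figure D4:**
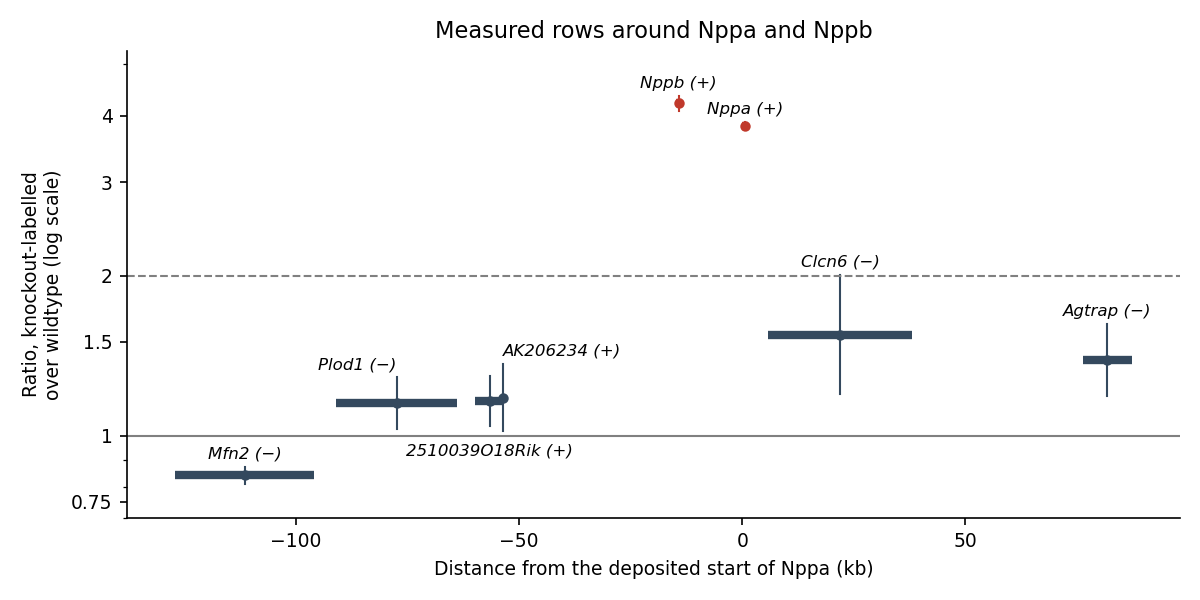
Ratio of the knockout-labelled over the wildtype library (log scale) for 8 measured rows within 100 kb of Nppb or Nppa, by distance from the deposited start of Nppa in kb. Thick bars span the row, thin lines are 95% counting intervals, and strand is in parentheses. Nppa and Nppb (red) stand at 3.83 and 4.22. The ratio of each neighbour shown (dark) lies under the dashed 2-fold line, which the interval of Clcn6 reaches.

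Atrial muscle is the richest normal source of Nppa, so atrial markers were examined beside it. The atrial genes Sln, Myl7 and Myl4 had few reads, under 5 RPM in both libraries. Sln, which encodes a regulator of the calcium pump, had 1 read in the knockout-labelled library and 5 in the wildtype. Myl7, the atrial regulatory light chain gene, had 4 and 19 reads, a ratio of 0.202 (0.0499 to 0.607). Myl4, the atrial essential light chain gene, had 12 and 18 reads, a ratio of 0.639 (0.281 to 1.40). Bmp10 had 0 reads in both libraries, which allows up to 0.342 RPM in the knockout-labelled library and 0.357 in the wildtype. Of 4 measured genes in the list of 9, Dkk3 was 2-fold higher at 9.12 against 2.97 RPM and Kcnj3, a potassium channel gene, was 2-fold lower at 8.89 against 20.6 RPM. Stard10 stood at 24.5 against 15.1 RPM and Kcna5 at 17.0 against 17.7 RPM. The summed level of the atrial list was 65.3 RPM in the knockout-labelled library and 64.6 in the wildtype. Stard10, Kcna5, Kcnj3 and Dkk3 made up most of that sum. Sln, Myl7 and Myl4 added little to it. Each had fewer reads in the knockout-labelled library, but of their ratio intervals only that of Myl7 excluded 1.

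Markers of the conduction system, another site of Nppa expression, were counted next. Of 2 measured markers, 0 were higher and Gja5, the connexin 40 gene, was lower at 1.48 RPM in the knockout-labelled library against 7.13 in the wildtype. Irx3, at 50.0 against 47.6 RPM, lay within the rule, and the summed level of all 6 was 58.2 against 65.2 RPM. Irx3 made up most of that sum, and the other 5 markers summed to 8.21 RPM in the knockout-labelled library and 17.6 RPM in the wildtype. Of the 4 markers under 5 RPM, the counting interval of the ratio lay below 1 for 2 and above 1 for 0. Of 7 measured genes in the ventricular list, 0 were 2-fold higher or lower and the median log2 ratio was −0.07. Of these, Myh6, Tnnt2, Tnni3 and Actc1 are active in atrial muscle too, so they do not mark the chamber. The ratios farthest from 1 were 0.711 for Actc1, 0.886 for Irx4 and 1.08 for Tnnt2. For the endocardium, where Npr3 is found, 0 of 4 measured markers passed the rule, with summed levels of 92.9 and 90.4 RPM and ratios of 0.575 for Cytl1, 1.39 for Nfatc1 and 0.842 for Plvap. For endothelium, a site of Npr1, 0 of 8 passed, with Pecam1 at 95.2 against 87.9 RPM and Cdh5 at 232 against 241 RPM. Flt1, Tek and Tie1 had ratios of 1.58, 0.626 and 1.42.

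Markers of 3 other cell types were counted in the same way. Of 6 measured pericyte markers, 0 passed the rule in either direction, and Cspg4, Kcnj8 and Notch3 had ratios of 1.63, 0.671 and 0.793. Of 7 measured fibroblast markers 2 were lower, Lum at 1.71 against 8.92 RPM and Col1a1 at 6.50 against 28.5 RPM, while Dpt stood at 18.1 against 32.2 RPM. The more abundant Dcn, Gsn and Pdgfra had ratios of 1.04, 0.971 and 0.982. The log2 ratio was above 0 for 1 of the 7 and below 0 for 6. Their summed level was 1081 RPM in the knockout-labelled library and 1132 RPM in the wildtype. Neutrophils, a source of neprilysin in humans, had 1 measured marker, S100a9, which was higher at 10.0 RPM in the knockout-labelled library against 0.595 in the wildtype. S100a9 passed the minimum only through the knockout-labelled library. The 5 neutrophil markers with a row summed to 139 reads in the knockout-labelled library and 8 in the wildtype, while Mme had 45 and 59. The part of these markers in the values of Mme was not tested.

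The wider pathway was read from 5 lists, of which 39 genes were measured. Of these, 0 were 2-fold higher and 3 were 2-fold lower, against 3.35% and 2.37% of all measured genes, and their median log2 ratio was −0.09. A count of 0 among 39 lies near the background share.

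Of the 3 measured genes of other ligands and of peptide processing, 0 passed the 2-fold rule in either direction, and the counting intervals of Pcsk6 and Pam did not hold 1. Nppc, which encodes C-type natriuretic peptide, and Ostn, which encodes osteocrin, a decoy for the clearance receptor, had 0 reads in both libraries. Pcsk6, a protease known to activate corin, stood at 16.6 RPM in the knockout-labelled library and 25.6 in the wildtype, a ratio of 0.651 (0.524 to 0.807). Pam, the amidating enzyme that is abundant in the granules that store ANP, stood at 1056 against 875 RPM, a ratio of 1.21 (1.17 to 1.24). Ide, a peptide-degrading protease, stood at 50.9 against 57.3 RPM.

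Among the other sources of cyclic GMP, 4 genes were measured, 0 higher and 1 lower. The lower one was Gucy1a3, the α1 subunit of the nitric oxide receptor, at 10.7 RPM in the knockout-labelled library and 23.1 in the wildtype, a ratio of 0.464 (0.359 to 0.597). Its partner subunit gene Gucy1b3 stood at 16.1 against 10.7 RPM (ratio interval 1.14 to 1.98), so the subunits of the same enzyme lay on opposite sides of 1 beyond counting error. Nos3, the endothelial nitric oxide synthase gene, stood at 23.7 against 20.7 RPM.

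Of 4 measured phosphodiesterases, the enzymes that break down cyclic nucleotides, 0 were 2-fold higher and 0 lower. Pde2a, an enzyme that cyclic GMP itself stimulates, came closest at 106 RPM in the knockout-labelled library and 56.5 in the wildtype, a ratio of 1.87 (1.67 to 2.10). Pde5a, the target of sildenafil, stood at 5.36 against 3.92 RPM (1.37, 0.857 to 2.20) and Pde3a at 55.4 against 68.2 RPM. Pde9a, which breaks down cyclic GMP made under natriuretic peptides, was under the 5 RPM minimum with 13 and 22 reads. Also under it were Pde1a with 5 reads in the knockout-labelled library and 24 in the wildtype, Pde1b with 3 and 11 and Pde3b with 12 and 26. Their ratio intervals lay below 1, with upper bounds of 0.534, 0.990 and 0.908. The intervals of Pde9a, Pde10a and Pde11a held 1.

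Of 8 measured targets of the kinase, 0 were higher and 1 was lower. Rgs2, a brake on G protein signalling that cGMP kinase activates, stood at 9.57 RPM in the knockout-labelled library and 81.1 in the wildtype, a ratio of 0.118 (0.0930 to 0.148). Pln, which encodes the calcium pump inhibitor phospholamban, stood at 1574 against 2647 RPM, within the rule. Tsc2, a growth regulator, stood at 183 against 143 RPM.

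The 20 listed transcription factors that are known to act on Nppa or Nppb were all measured, with 0 higher and 1 lower by the rule. The lower one was Nfatc4, a factor activated by calcineurin, at 3.08 RPM in the knockout-labelled library and 7.25 in the wildtype (0.424, 0.259 to 0.678). Egr1 stood at 28.4 against 16.3 RPM (1.74, 1.41 to 2.16) and Nfatc2 at 11.7 against 19.1 RPM (0.613, 0.474 to 0.790). For the elements shown above, Gata4 stood at 79.9 against 116 RPM, Nkx2-5 at 231 against 148 RPM, Tbx5 at 59.4 against 70.3 RPM and Tead1 at 255 against 182 RPM. These 4 were chosen for the elements after their values were seen, and none passed the rule. The median of the 20 factors was −0.16 on the log2 scale.

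**Figure D5:**
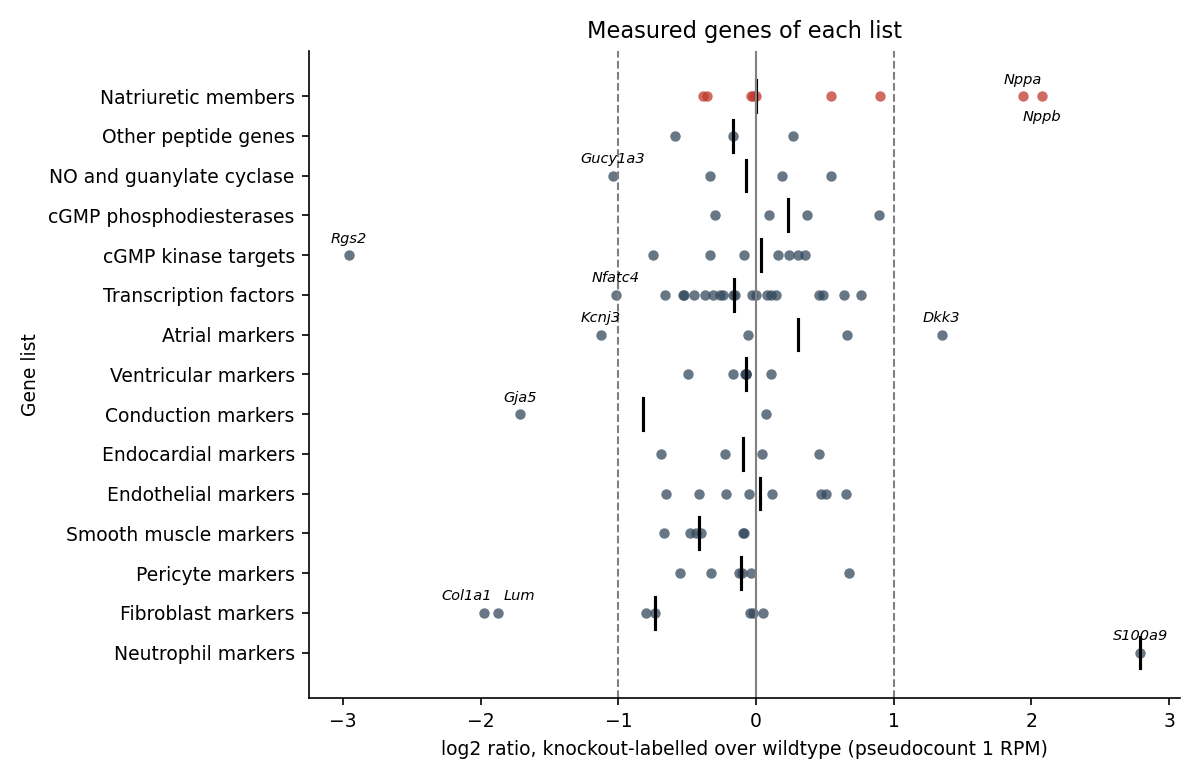
Log2 ratio of the knockout-labelled over the wildtype library (pseudocount 1 RPM) for each measured gene of the natriuretic members (red), the 5 pathway lists and the 9 marker lists (dark); black bars are medians, dashed lines the 2-fold rule, and genes past it are named. In the pathway lists the named genes all lie on the lower side, and Nppa and Nppb stand alone above the rule among the members.

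Likeness to the peptides could be measured only by the closeness of 1 log2 ratio over 2 libraries. Among genes with at least 100 RPM in the higher library, the 3 closest to Nppa were Irs2, an adaptor of the insulin receptor (ratio 3.99), Bcl2l1, a survival gene (3.75), and Agfg2 (4.19). Those closest to Nppb were Abra, an actin-binding gene of striated muscle (4.15), Agfg2, and Fkbp5, a chaperone of steroid receptors (4.55). The level of Abra was 737 RPM in the knockout-labelled library and 178 in the wildtype, and that of Bcl2l1 was 591 against 158 RPM.

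Read assignment limits some of these values. The deposited table is not stated to use strand, and 6 of the 9 members have exons that overlap a GENCODE M21 gene on the opposite strand with no row of its own in the table. They are Corin, Furin, Nppa, Npr1, Npr2 and Npr3. For Nppa, reads of its antisense partner Gm13054 cannot be told apart from its own, and the same holds for the others. The long introns of Prkg1 hold Cstf2t on the opposite strand, which had 188 reads in the knockout-labelled library and 279 in the wildtype.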

How the data were processed

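Left ventricle RNA of 1 mouse labelled Lamp2 knockout and 1 wildtype mouse was sequenced by the authors, and the genotype label set the group. The submitters' processing notes name STAR and the builds mm10 and GRCm38. Which tool and annotation made the counts, and whether strand was used, is not given in the sources used here. Per the file headers, the authors deposited read counts per gene symbol and RPM values, which equal the count divided by the total over all rows, times 1000000. The authors' deposited fold and p-value columns were not used. Deposited starts were given plus 1.

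Ratios are of RPM, and their 95% intervals are exact binomial (Clopper-Pearson) ones, conditional on the sum of both counts. No molecular identifiers are stated, so reads may not be independent molecules, and intervals and the floor of 3 counts cover counting error only. At 8773820 and 8410593 reads, abundant genes are known more closely than genes near 5 RPM. Levels per kilobase use the union of GENCODE M21 exons. Members, lists and motifs were chosen with earlier results of these data known. The text names all members, list genes past the rule, the 3 most distant from 0 per list, the defining markers, rows within 100 kb of the peptide genes and the 3 nearest genes by log2 ratio, and a few others for their role. A few list genes and rows were left out of the lists and are not reported here. Alternatives were a pseudocount of 0.1 or 5 RPM, a minimum of 1 or 20 RPM or none, folds of 1.5 and 3, and 4 rescalings. Python 3.11.15, numpy 2.4.6, pandas 2.3.3, scipy 1.17.1 and matplotlib 3.10.9 were used.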

Additional observations from a re-analysis of the deposited data

How the results depend on the processing

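The count of 2 members higher and 0 lower was the same under both pseudocounts, the other minimums, a 3-fold rule and the 4 rescalings, and a 1.5-fold rule gave 3 higher and 0 lower. Across pseudocounts and rescalings the log2 ratio of Nppa ranged from 1.74 to 1.95 and that of Nppb from 1.88 to 2.09. Of 54 member values under these alternatives, 42 stayed within the counting interval. The 12 beyond it were those of Nppa, Nppb, Corin and Furin under all rescalings but the total without Nppa and Nppb. Only Nppa and Nppb were called, and neither could reverse, because the largest rescaling shift was 0.20 on the log2 scale. Scaling to the total without mitochondrial rows and the 10 most abundant rows put the intervals of Npr2 (0.849, 0.731 to 0.985) and Mme (0.638, 0.423 to 0.957) below 1. The order of members per kilobase was the same with the longest transcript as length, though quotients between members can change with it. No paired analysis was possible because each group holds 1 library. Depth limits Mme, Prkg1, Npr1 and Npr3 most, at 104 to 310 reads over both libraries.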

Other observations

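Most of the abundant transcripts of these ventricles did not reach a 2-fold difference. Of 121 measured genes with at least 1000 RPM in the higher library, 11 were higher and 3 were lower in the knockout-labelled library. Over all 10209 measured genes 3.35% were higher and 2.37% lower. The abundant genes had a larger share higher and a similar share lower, but the share higher is partly set by the limit. Mt2, Mt1, Nppb, Timp3, Ptgds, Clu, Ctgf and Xirp1 were under 1000 RPM in the wildtype. Each of them entered only through the knockout-labelled library, so no conclusion is drawn from the larger share. Among the 11, Nppb and Nppa came by log2 ratio after only the metallothionein genes Mt2 (1093 against 119 RPM) and Mt1 (2697 against 553 RPM). The others were Timp3, an inhibitor of matrix proteases, at 1200 against 363 RPM, the prostaglandin D synthase gene Ptgds at 2329 against 790 RPM, Ankrd1, Clu, Ctgf, Glul and Xirp1. Ctgf, which encodes a matricellular growth factor, stood at 2070 against 874 RPM and Xirp1, a gene of the intercalated disc, at 1041 against 488 RPM. The abundance limit was chosen after the values were seen.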
